A study of Rattus norvegicus with 12 samples.

Results

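The levels of 10 genes that encode feedback inhibitors of extracellular signal-regulated kinase (ERK) signaling were examined in the lungs of monocrotaline (MCT) rats: the dual-specificity phosphatases Dusp1, Dusp2, Dusp4, Dusp5 and Dusp6, the Sprouty genes Spry1, Spry2 and Spry4, and the Spred genes Spred1 and Spred2. They were picked by gene symbol, and all 10 were found among the 16957 genes listed in all 3 deposited tables. All 10 also passed the filter on low counts in each comparison.

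ERK is the last kinase of the Ras-Raf-MEK cascade, which growth factor receptors and many G protein-coupled receptors switch on. Active ERK induces the genes of its own inhibitors: dual-specificity phosphatases remove the activating phosphates from ERK and related kinases, whereas Sprouty and Spred proteins act further up, between the receptor and Raf. In the lung, Sprouty proteins are known for limiting fibroblast growth factor signaling during airway branching. The mRNAs of these genes are therefore widely read as a record of recent ERK activity, although several of them also respond to other signals.

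Lung RNA was sequenced from 12 male Sprague-Dawley rats aged 9 weeks, 3 per group. The rats received angiotensin II (AngII), TRV023, losartan or phosphate-buffered saline (vehicle) from osmotic minipumps. AngII is the natural full agonist of the angiotensin II type 1 receptor (AT1R), TRV023 is a ligand of the same receptor that is biased toward β-arrestin, and losartan blocks the receptor. All 4 groups, vehicle included, had been given MCT, a plant toxin that injures the pulmonary circulation and produces pulmonary hypertension, and no lung without MCT was analysed here. The 3 drugs were infused at different doses per body weight, so differences between drugs are also differences between doses. Each library came from its own rat.

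The libraries held 16106337 to 20096877 counted reads. Levels are given as FPKM, fragments divided by gene length and by the library total, and differences as log2 fold changes of read counts scaled by the trimmed mean of M values (TMM). Values of single libraries on that scale are log2 CPM, counts relative to the scaled library total. The lung label was met by its markers: summed over the measured genes of each list, alveolar type 2 markers reached 10400 to 29800 FPKM and endothelial markers 1130 to 2150 FPKM. The vehicle library Veh_963 stood apart in its smooth muscle markers, with a sum of 2740 FPKM against 651 to 1350 FPKM in the other 11 libraries. Of all marker lists, the genes Marco, Cd79a, Dnah5, Bpifa1, Myh6, Actn2 and Ryr2 were at 0 in at least 1 library.

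Dusp1 was the most abundant of the 10 genes and Spred2 the least. The median over the 12 libraries was 122 FPKM for Dusp1, 56.2 for Dusp6, 49.9 for Spry1, 29.1 for Spry2, 12.2 for Spry4, 9.36 for Dusp2, 8.65 for Dusp4, 6.33 for Dusp5, 5.76 for Spred1 and 5.12 for Spred2. Neighbours in this order overlapped in their ranges over the libraries at every step but 1: the lowest library of Spry2 had 19.6 FPKM and the highest of Spry4 had 17.9 FPKM. The deposited FPKM of Spry1 was 1.42 times the value that its listed length gives, whereas the other 9 genes matched their listed length. For comparison, the median gene of the 12 libraries had 9.13 FPKM.

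The genes also differed in how much they varied between rats. The standard deviation of log2 CPM over the 12 libraries was 0.906 for Dusp1, which was larger than in 88.2% of genes, and the highest Dusp1 library held 5.56 times the FPKM of the lowest. Dusp5 (SD 0.631, 4.72 times), Spred1 (0.566, 4.46 times) and Spred2 (0.488, 4.32 times) came next. Dusp6, Spry1 and Spry2 were the steadiest, with SDs of 0.258, 0.255 and 0.264, all smaller than the 0.335 of the median gene. Dusp4, Dusp2 and Spry4 lay between, with SDs of 0.434, 0.369 and 0.353.

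**Figure D1:**
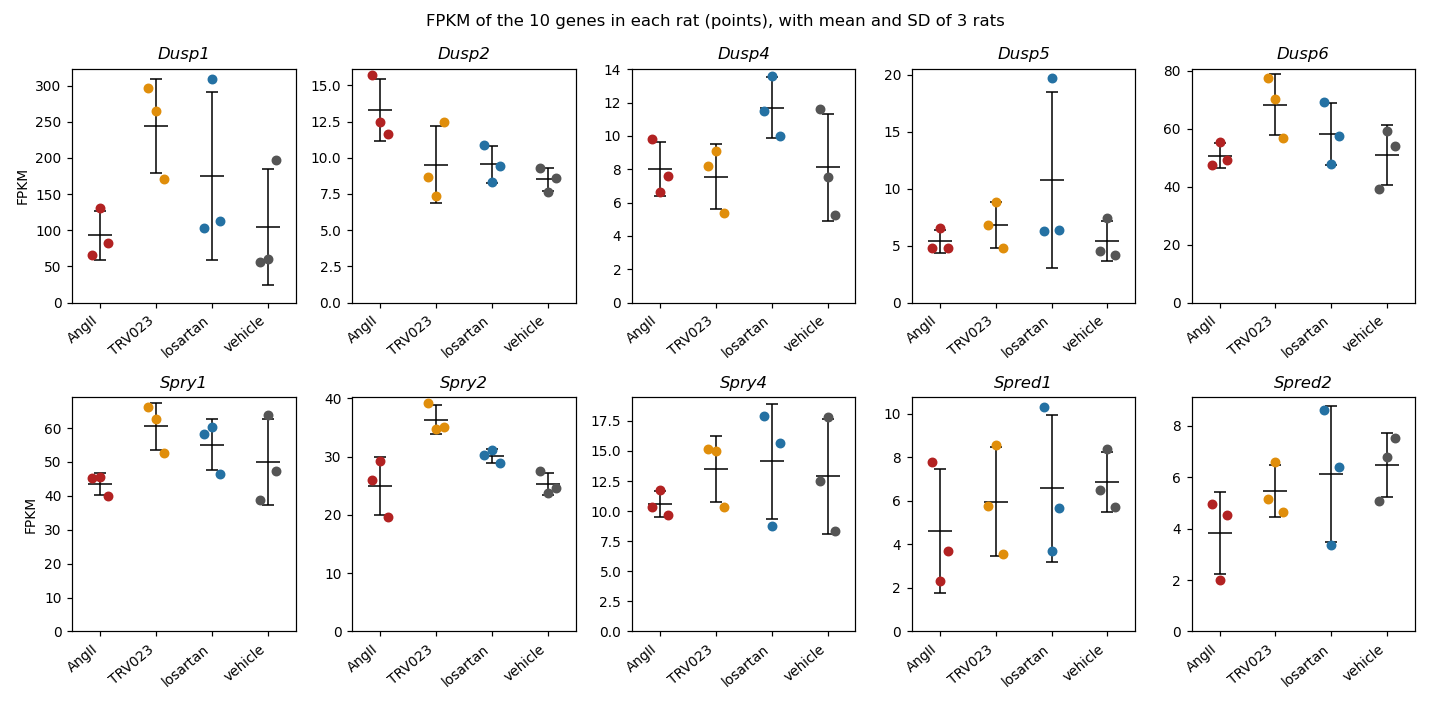
Level of each of the 10 genes in every library, in FPKM on a linear axis that starts at 0 in every panel, with 1 point per rat and lines at the mean and SD of the 3 rats of each group. Dusp1 spread from 55.6 to 309 FPKM, whereas Spry2 stayed between 19.6 and 39.2 FPKM.

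The DNA before the start of these genes is shown for 4 of them, the members with the widest spread among the phosphatases (Dusp1 and Dusp5) and those with the smallest p-values against vehicle (Dusp2 and Spry2). The RefSeq table of rat promoters (assembly GRCr8) matched 9 of the 10 symbols, with 10 entries since Spry2 has more than 1 start. The 250 bases before the start are given 5′ to 3′ on the gene's strand, from chr10:17184603-17184852 (plus strand) for Dusp1, chr1:262543524-262543773 (plus strand) for Dusp5, chr3:135009386-135009635 (plus strand) for Dusp2 and chr15:89111927-89112176 (minus strand) for the first entry of Spry2. The 300 bases searched in each member, 50 of them after the start, held 56 to 76.3% G and C, against a median of 51.7% over all promoters. Capitals mark CArG boxes, the sequence that serum response factor binds, and TGACGTCA or its core TGACG, the cyclic AMP response element, on either strand.
Dusp1: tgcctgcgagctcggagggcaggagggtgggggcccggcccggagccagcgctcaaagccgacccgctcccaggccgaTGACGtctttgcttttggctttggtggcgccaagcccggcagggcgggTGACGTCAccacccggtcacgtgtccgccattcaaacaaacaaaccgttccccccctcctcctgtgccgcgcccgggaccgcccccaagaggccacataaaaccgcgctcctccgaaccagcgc
Dusp5: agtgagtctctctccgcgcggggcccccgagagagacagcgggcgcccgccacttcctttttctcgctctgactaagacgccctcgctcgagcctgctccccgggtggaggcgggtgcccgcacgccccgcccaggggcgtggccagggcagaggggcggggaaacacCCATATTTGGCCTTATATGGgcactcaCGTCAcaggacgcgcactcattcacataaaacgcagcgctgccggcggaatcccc
Dusp2: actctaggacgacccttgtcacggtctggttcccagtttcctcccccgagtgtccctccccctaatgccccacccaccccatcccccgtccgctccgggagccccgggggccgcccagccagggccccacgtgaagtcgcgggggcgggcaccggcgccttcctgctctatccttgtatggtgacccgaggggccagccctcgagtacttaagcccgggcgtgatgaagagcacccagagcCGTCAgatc
Spry2: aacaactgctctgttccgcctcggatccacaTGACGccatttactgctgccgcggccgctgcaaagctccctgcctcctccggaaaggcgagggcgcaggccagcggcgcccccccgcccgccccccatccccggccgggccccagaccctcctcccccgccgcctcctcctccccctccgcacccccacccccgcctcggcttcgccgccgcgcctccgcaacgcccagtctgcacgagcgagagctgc

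Dusp5 held 2 adjoining CArG boxes, CCATATTTGG at -82 to -73 and CCTTATATGG at -72 to -63 before the start, and was the only one of the 10 entries with that motif, which 1.64% of the 33469 rat promoters of 300 bases hold. Dusp1 held TGACGTCA at -124 to -117, a motif in 1.83% of all promoters, and a separate TGACG at -172 to -168. The shorter motif TGACG, counted on both strands and including those inside TGACGTCA, stood in 5 of the 10 entries (Dusp1, Dusp2, Dusp5, Spry2 and Spred2) and in 21.2% of all promoters. None of the 10 entries held TGANTCA (7.33% of all promoters), CCGGAAG (8.75%) or TATAAA (14.2%). A match describes the letters in this window and is neither a binding site nor a cause of the levels described here.

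None of the 10 genes passed an adjusted p of 0.05 in edgeR's quasi-likelihood test in any of the 3 comparisons with vehicle. With AngII, 0.0133% of the 15059 genes tested passed. With TRV023, 0.00658% of 15193 genes passed, and with losartan 0% of 15156. At an unadjusted p under 0.05, 1 member was higher with AngII (Dusp2, where 6.54% of all genes were higher at that p), 2 were higher with TRV023 (Dusp1 and Spry2, against 2.61% of all genes), none was higher with losartan (0.686% of all genes, and 1.65% in either direction), and none was lower with any drug (5.39% of all genes with AngII, 2.96% with TRV023 and 0.963% with losartan). By DESeq2, which called 1.24%, 0.672% and 0.0327% of genes in the AngII, TRV023 and losartan comparisons, Dusp2 was called with AngII and no other member was called with any drug.

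The groups did not overlap for 1 member with AngII (Dusp2, higher), 1 with TRV023 (Spry2, higher) and 2 with losartan (Dusp2 and Spry2, higher). Over all genes, groups did not overlap for 18.6% with AngII (9.46% higher, 9.17% lower), 10.2% with TRV023 (4.69% higher, 5.56% lower) and 5.77% with losartan (2.78% higher, 2.99% lower), so the members' share was near the background with AngII and TRV023.

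The 3 comparisons share the same 3 vehicle libraries, so their values are set side by side and not tested against each other. The 10 log2 fold changes had a median of 0.04 with AngII, 0.22 with TRV023 and 0.23 with losartan, beside -0.02, -0.00161 and 0.01 over all genes tested. Positive values numbered 5 of 10 with AngII, 7 of 10 with TRV023 and 8 of 10 with losartan. Scaling by library totals shifted the median of all genes by -0.132 with AngII, where 2 of 10 members were then positive with a median of -0.09, and left 7 and 8 of 10 positive with TRV023 and losartan. The 95% confidence intervals reached from 0.282 (Spry2, TRV023) to 1.44 (Dusp1, losartan) to either side of the estimate on the log2 scale.

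**Figure D2:**
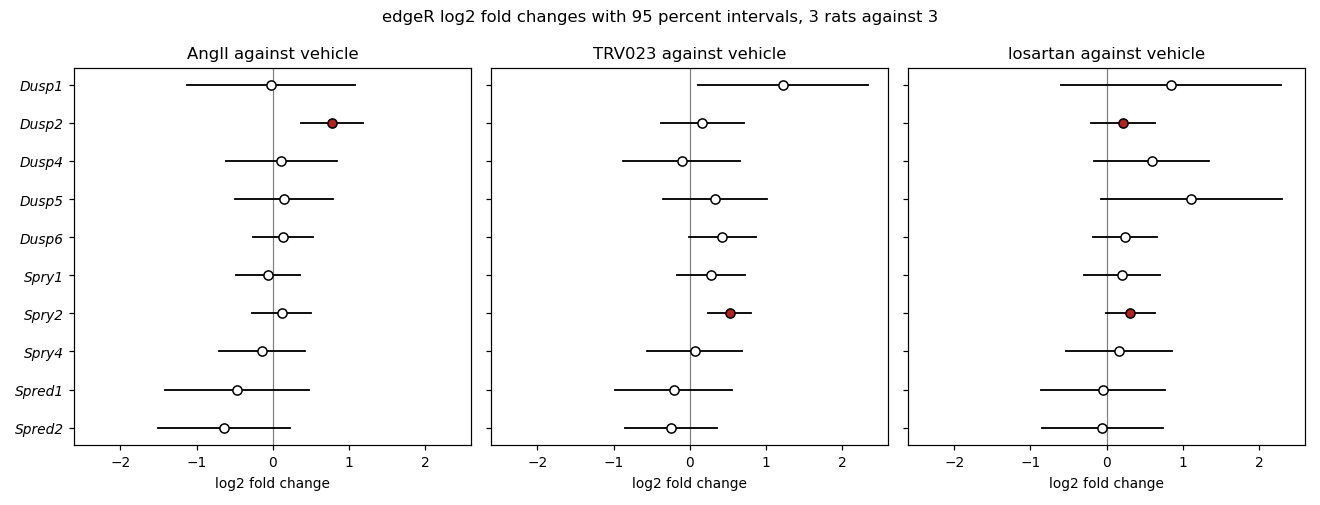
Log2 fold change of each member for AngII, TRV023 and losartan over vehicle (points) with its 95% confidence interval (lines), from edgeR fits of 6 libraries each. Filled points mark members whose groups did not overlap. The intervals of Dusp2 with AngII (0.365 to 1.18), Spry2 with TRV023 (0.243 to 0.806) and Dusp1 with TRV023 (0.103 to 2.34) lay above 0 before adjustment over all genes.

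Dusp2 encodes a phosphatase of the nucleus that is best known from activated lymphocytes and macrophages, and is listed on chromosome 3 at 126303199 to 126305373 of the deposited annotation. Dusp2 had 15.7, 12.5 and 11.7 FPKM in AngII lungs, 8.68, 7.39 and 12.5 FPKM in TRV023 lungs, 10.9, 8.35 and 9.45 FPKM in losartan lungs, and 9.26, 7.64 and 8.62 FPKM in vehicle lungs. All 3 AngII lungs lay above all 3 vehicle lungs, and 1 TRV023 lung (Trv_930) reached the AngII range in FPKM. The estimated fold change of Dusp2 with AngII was 1.71 (log2 fold change 0.77, SE 0.179, edgeR adjusted p = 0.295), the 101st smallest p of that comparison. DESeq2 gave a log2 fold change of 0.78 (SE 0.212, adjusted p = 0.026), so the call depended on the tool. Over 15 alternatives the change ranged from 0.581 to 0.857 and the adjusted p from 0.026 to 0.728.

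With TRV023, the log2 fold change of Dusp2 was 0.17 (SE 0.235), and with losartan it was 0.21 (SE 0.184). On the TMM scale all 3 losartan lungs lay above all 3 vehicle lungs in Dusp2 (log2 CPM of 4.05, 3.88 and 3.94 against 3.86, 3.60 and 3.77), while in FPKM the groups overlapped.

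Markers of T and NK cells were also higher in AngII lungs than in vehicle lungs: 6 of the 7 markers were tested, all 6 had positive log2 fold changes with a median of 0.53, and their sum was 81.1 to 110 FPKM in AngII lungs and 65.2 to 75.7 FPKM in vehicle lungs. None of the 6 was at 0 in any library and none passed edgeR's test. The shift was not particular to these markers. Positive values were also found for 4 of 4 B and plasma cell markers (median 0.78), 5 of 6 mast cell markers (median 0.46), 6 of 7 neutrophil markers (median 0.45) and 4 of 5 macrophage markers (median 0.27), while 6 of 6 ciliated (median -1.23), 4 of 4 club and secretory (median -0.89) and 7 of 7 smooth muscle markers (median -0.84) were negative. Smooth muscle markers summed to 651 to 1060 FPKM in AngII lungs. In vehicle lungs the sum was 726 FPKM in Veh_923, 1070 FPKM in Veh_924 and 2740 FPKM in Veh_963. The part of these lists in the Dusp2 result was not tested, and in RNA of whole tissue the number of cells of a type and the RNA per cell cannot be told apart.

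Dusp1 encodes an immediate early phosphatase of the nucleus that acts on p38 and JNK as well as ERK and is also induced by glucocorticoids and stress. It is listed on chromosome 10 at 16867370 to 16870162. Dusp1 had 65.9, 131 and 82.6 FPKM in AngII lungs, 297, 264 and 171 FPKM in TRV023 lungs, 103, 309 and 113 FPKM in losartan lungs, and 55.6, 60.3 and 198 FPKM in vehicle lungs. The TRV023 lungs were high throughout, and 1 losartan lung (Los_964) and 1 vehicle lung (Veh_963) were far above the others of their groups, so that all 3 drug groups overlapped vehicle.

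The estimated fold change of Dusp1 with TRV023 was 2.33 (log2 fold change 1.22, SE 0.485, unadjusted p = 0.0358, adjusted p = 0.844 by edgeR). Single libraries carried much of each Dusp1 value. Without Veh_963 the log2 fold change with TRV023 was 2.08 (adjusted p = 0.134), that with losartan was 1.7 in place of 0.84 (SE 0.625), and that with AngII was 0.83 in place of -0.02 (SE 0.487). Without Los_964 the losartan value was 0.04. Veh_963 is the library with the high smooth muscle markers, whose part in the Dusp1 values was not tested.

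Dusp5 encodes a nuclear phosphatase specific for ERK and is listed on chromosome 1 at 281658075 to 281671441. Dusp5 had 4.79, 6.54 and 4.79 FPKM in AngII lungs, 6.77, 8.78 and 4.76 FPKM in TRV023 lungs, 6.32, 19.7 and 6.33 FPKM in losartan lungs, and 4.54, 7.38 and 4.17 FPKM in vehicle lungs. Los_964, which also had the highest Dusp1, stood alone, and the other 11 libraries lay between 4.17 and 8.78 FPKM. The log2 fold change of Dusp5 was 1.11 with losartan (SE 0.514, interval -0.0764 to 2.3, adjusted p = 1), and 0.23 without Los_964. It was 0.14 with AngII (SE 0.283) and 0.33 with TRV023 (SE 0.294). In Los_964 the neutrophil markers summed to 713 FPKM and the immediate early genes averaged 0.766 log2 units above their mean over the libraries, the highest of all 12 libraries for the immediate early genes. Their part in the Dusp5 and Dusp1 values was not tested.

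Dusp4, a nuclear phosphatase of ERK, JNK and p38, is listed on chromosome 16 at 60750785 to 60760965. Dusp4 had 9.80, 6.65 and 7.57 FPKM in AngII lungs, 8.21, 9.09 and 5.38 FPKM in TRV023 lungs, 11.5, 13.6 and 9.98 FPKM in losartan lungs, and 11.6, 7.51 and 5.24 FPKM in vehicle lungs. The losartan lungs were the high group, and 1 vehicle lung (Veh_923) lay within their range. The log2 fold change was 0.59 with losartan (SE 0.326, interval -0.163 to 1.34, adjusted p = 1), 0.11 with AngII (SE 0.319) and -0.10 with TRV023 (SE 0.334). The losartan value was 0.35 without Veh_963 and 0.93 without Veh_923.

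Dusp6, the cytoplasmic phosphatase that is most selective for ERK, is listed on chromosome 7 at 41506397 to 41510626. Dusp6 had 47.6, 55.5 and 49.1 FPKM in AngII lungs, 77.6, 70.3 and 56.8 FPKM in TRV023 lungs, 69.2, 47.9 and 57.7 FPKM in losartan lungs, and 39.3, 59.2 and 53.9 FPKM in vehicle lungs. The upper pair of TRV023 lungs exceeded every other library, and the third lay inside the vehicle range. The log2 fold change with TRV023 was 0.43 (SE 0.19, interval -0.0114 to 0.862, adjusted p = 0.909), against 0.13 with AngII (SE 0.174) and 0.24 with losartan (SE 0.182).

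Of the Sprouty genes, Spry2 had the smallest p. Spry2 protein restrains signaling between receptor tyrosine kinases and Ras, and the gene is listed on chromosome 15 at 93662947 to 93665780. Spry2 had 25.9, 29.3 and 19.6 FPKM in AngII lungs, 39.2, 34.7 and 35.1 FPKM in TRV023 lungs, 30.3, 31.2 and 28.9 FPKM in losartan lungs, and 27.5, 23.8 and 24.6 FPKM in vehicle lungs. All TRV023 lungs and all losartan lungs lay above all vehicle lungs, and the AngII lungs spread around the vehicle values.

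The estimated fold change of Spry2 with TRV023 was 1.44 (log2 fold change 0.52, SE 0.122, unadjusted p = 0.00258), the 73rd smallest p of that comparison, but the adjusted p was 0.538 by edgeR and 0.0972 by DESeq2. Leaving out each library in turn gave 0.455 to 0.59. The value was 0.31 with losartan (SE 0.14, interval -0.0148 to 0.631) and 0.12 with AngII (SE 0.17). Neutrophil markers were also high in TRV023 lungs, where their sum was 748, 392 and 418 FPKM against 148 to 331 FPKM in vehicle lungs, with positive log2 fold changes for 7 of 7 markers and a median of 1.16. None of the 7 was at 0 in any library. Other marker lists leaned up or down in the same comparison. Mast cell markers summed to 1030 to 1100 FPKM in TRV023 lungs and 645 to 880 FPKM in vehicle lungs. Of 6 mast cell markers, 4 had positive and 2 negative log2 fold changes (median 0.39). Positive values were found for 5 of 5 alveolar type 1 (median 0.35) and 4 of 4 club and secretory markers (median 0.50). Negative values were found for 5 of 5 mesothelial (median -1.62) and 7 of 7 smooth muscle markers (median -0.78). Smooth muscle markers summed to 785 to 1290 FPKM in TRV023 lungs. In vehicle lungs the sum was 726 FPKM in Veh_923, 1070 FPKM in Veh_924 and 2740 FPKM in Veh_963. The part of these lists in the values of Spry2 and Dusp1 was not tested.

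Spry1, on chromosome 2 at 144010431 to 144015083, had 45.3, 45.6 and 39.9 FPKM in AngII lungs, 66.1, 62.8 and 52.6 FPKM in TRV023 lungs, 58.4, 60.3 and 46.5 FPKM in losartan lungs, and 38.7, 63.7 and 47.3 FPKM in vehicle lungs. Vehicle lung Veh_924 lay among the TRV023 values, and every drug group overlapped vehicle. The log2 fold change was -0.06 with AngII (SE 0.183), 0.28 with TRV023 (SE 0.193) and 0.20 with losartan (SE 0.214). Spry4, on chromosome 18 at 32272760 to 32287666, ranged from 9.71 to 11.8 FPKM in AngII lungs, 10.3 to 15.1 in TRV023 lungs, 8.77 to 17.9 in losartan lungs and 8.33 to 17.8 in vehicle lungs. Its log2 fold changes were -0.14 (SE 0.249), 0.06 (SE 0.27) and 0.16 (SE 0.301) for AngII, TRV023 and losartan over vehicle, and the vehicle lungs alone covered nearly the whole range of Spry4.

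The Spred genes encode membrane-bound relatives of Sprouty that bring neurofibromin, a negative regulator of Ras, to the membrane. They were the least deeply counted members, with 58 to 273 reads for Spred1 and 46 to 210 for Spred2. Spred1, on chromosome 3 at 115352442 to 115414136, had 7.80, 2.32 and 3.69 FPKM in AngII lungs, 5.77, 8.57 and 3.55 FPKM in TRV023 lungs, 10.3, 3.70 and 5.69 FPKM in losartan lungs, and 6.49, 8.39 and 5.74 FPKM in vehicle lungs. Spred2, on chromosome 14 at 103926069 to 104024317, had 4.95, 2.00 and 4.53 FPKM in AngII lungs, 5.15, 6.59 and 4.63 FPKM in TRV023 lungs, 8.63, 3.36 and 6.38 FPKM in losartan lungs, and 5.09, 6.79 and 7.53 FPKM in vehicle lungs. In FPKM the AngII lungs of Spred2 lay below all vehicle lungs, but on the TMM scale the groups overlapped, and the lowest library of both genes was Ang2_931.

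With AngII, the log2 fold change was -0.47 for Spred1 (SE 0.416, interval -1.41 to 0.479, adjusted p = 0.649) and -0.64 for Spred2 (SE 0.379, interval -1.5 to 0.226, adjusted p = 0.511). Both depended on single libraries: the value of Spred1 was -1.01 without Ang2_922 and -0.16 without Ang2_931, and that of Spred2 was -0.34 without Ang2_931. For TRV023 the values were -0.21 (SE 0.332) and -0.25 (SE 0.261), and for losartan -0.05 (SE 0.352) and -0.06 (SE 0.344). Both losartan values turned positive, to 0.20 each, without Los_964. They were 0.42 for Spred1 and 0.48 for Spred2 without Veh_963, Los_964 and Los_965, which left Los_925 as the only losartan lung. Los_925 had the highest Spred1 and Spred2 of all 12 libraries. The animal numbers of the libraries left out form a series apart from the other 9, and the sources used here do not say what that series marks.

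**Figure D3:**
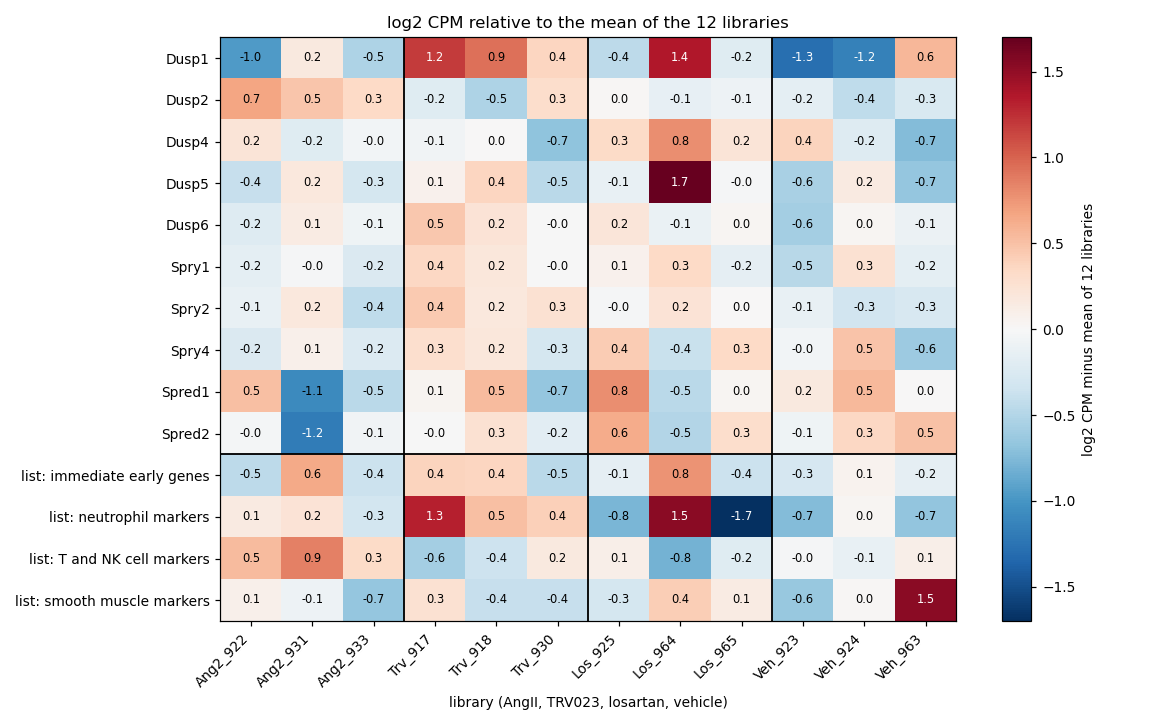
Each member in each library as TMM-scaled log2 CPM minus the gene's mean over the 12 libraries (color), with genes in rows and libraries in columns, ordered AngII, TRV023, losartan, vehicle. The bottom rows give the mean of the same measure over the immediate early genes and over the markers of neutrophils, T and NK cells and smooth muscle. Dusp1 and Dusp5 were highest in Los_964, where Spred1 and Spred2 were low, and both Spred genes were lowest in Ang2_931.

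The drugs were then set against each other in a fit of all 12 libraries and 15662 genes. No gene passed the adjusted threshold in edgeR in the 3 pairs (0% each), while 10.9%, 9.18% and 4.55% of genes had an unadjusted p under 0.05 for AngII over TRV023, AngII over losartan and TRV023 over losartan. DESeq2 called 1.36%, 0.66% and 0.109% of genes, and no member. Of the 10 members, 1 was higher and 2 were lower at that p for AngII over TRV023 (5.43% of all genes in each direction), 1 was higher for AngII over losartan (4.69% of all genes, with 4.49% lower) and 1 was lower for TRV023 over losartan (2.27%).

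AngII and TRV023 are the full and the biased ligand of the same receptor. Of their differences, 8 of 10 log2 fold changes of AngII over TRV023 were negative, with a median of -0.27 beside -0.01 over all genes. The log2 fold change of Dusp1 was -1.24 (SE 0.551, interval -2.43 to -0.0411, adjusted p = 0.438) and that of Spry2 was -0.40 (SE 0.156, interval -0.741 to -0.0632, adjusted p = 0.379). That of Dusp2 was 0.61 (SE 0.208, interval 0.16 to 1.06, adjusted p = 0.323). On the TMM scale AngII lungs lay wholly below TRV023 lungs for Dusp1, Spry1 and Spry2, which 8.43% of all genes did, and wholly above for Dusp2, which 7.87% did (16.3% in either direction). In FPKM the Dusp2 groups overlapped, since Trv_930 (12.50 FPKM) lay above Ang2_931 (12.49 FPKM) and Ang2_933 (11.65 FPKM). The log2 fold change was -0.28 for Dusp6 (SE 0.177) and -0.33 for Spry1 (SE 0.186). The intervals of these and the other 5 members reached to both sides of 0, which does not show that the 2 ligands acted alike on them.

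Against losartan lungs, AngII lungs had a log2 fold change of 0.57 for Dusp2 (SE 0.208, interval 0.121 to 1.02, adjusted p = 0.475), with all AngII lungs above all losartan lungs on the TMM scale, as 6.08% of all genes were (12.1% in either direction). The other 9 members were negative, among them Dusp5 (-0.95, SE 0.447, interval -1.92 to 0.0214), whose value was -0.08 without Los_964. TRV023 lungs lay wholly below losartan lungs for Dusp4 (log2 fold change -0.68, SE 0.305, interval -1.35 to -0.0226, adjusted p = 0.998), as did 4.12% of all genes. Dusp5 in TRV023 over losartan was -0.77 (SE 0.444), and 0.11 without Los_964.

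**Figure D4:**
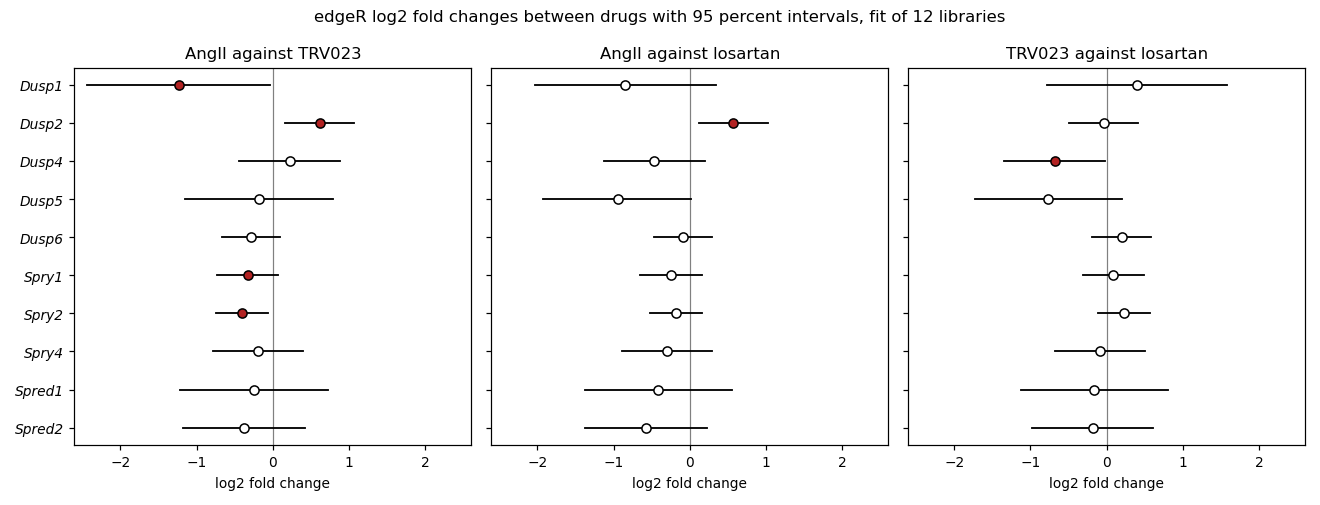
Log2 fold change of each member between drugs (points) with its 95% confidence interval (lines), from 1 edgeR fit of all 12 libraries, with filled points where the groups did not overlap: AngII over TRV023, AngII over losartan and TRV023 over losartan. Dusp2 was the member with intervals above 0 for AngII over both other drugs (0.16 to 1.06 and 0.121 to 1.02).

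The rest of the pathway was read from 5 lists. Among 13 other Dusp, Spry and Spred genes, 12, 11 and 12 were tested with AngII, TRV023 and losartan, and their median log2 fold changes were -0.14, 0.04 and 0.11. The 22 genes of the ERK cascade itself, the adaptors, Ras and its regulators, Raf, MEK, ERK and its substrate kinases, had medians of -0.03, -0.01 and 0.08. The medians of 18 immediate early genes were 0.09, 0.21 and 0.31, and those of 12 delayed ERK target genes were -0.16, -0.02 and -0.00301. These medians depended on single libraries. With each library left out in turn, the immediate early median was -0.257 to 0.33 with AngII, 0.142 to 0.382 with TRV023 and -0.21 to 0.424 with losartan. The delayed target median was -0.279 to 0.013, -0.172 to 0.223 and -0.0495 to 0.187 in the same order. Genes of the angiotensin II receptors and β-arrestins, of which 3, 4 and 3 were tested, had medians of -0.20, -0.04 and 0.03. Against vehicle, Agtr2, which encodes the type 2 receptor, was tested only with TRV023 (log2 fold change 0.53, SE 0.753). It had 1 to 13 reads per library. No gene of any list passed edgeR's adjusted threshold. DESeq2 called Dusp26 (log2 fold change 0.94, SE 0.249, adjusted p = 0.0207) and Rasa1 (-0.59, SE 0.17, adjusted p = 0.0444), both with AngII.

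Of the 22 ERK cascade genes, 2 were higher and 3 lower with AngII at an unadjusted p under 0.05, where 11.9% of all genes were past it in either direction. The higher ones were Rps6ka1, a kinase that ERK activates (log2 fold change 0.41, SE 0.128, adjusted p = 0.37), and Map2k2, which encodes a MEK (0.34, SE 0.146, adjusted p = 0.416), both named after their values were seen. The lower ones were Rasa1, Nf1 and Rps6ka3. Rasa1 encodes a GTPase-activating protein that turns Ras off. It had 9.56, 7.41 and 8.17 FPKM in AngII lungs and 13.2, 14.9 and 13.7 FPKM in vehicle lungs, without overlap (edgeR log2 fold change -0.60, SE 0.139, adjusted p = 0.295). Neurofibromin, encoded by Nf1, is the partner of the Spred proteins and another such regulator of Ras. Nf1 had 1.79, 1.39 and 1.35 FPKM in AngII lungs and 2.49, 2.98 and 2.24 FPKM in vehicle lungs (log2 fold change -0.64, SE 0.187, adjusted p = 0.347). Rps6ka3, a relative of Rps6ka1, had 17.8, 12.6 and 11.7 FPKM in AngII lungs and 22.0, 22.1 and 21.8 FPKM in vehicle lungs (-0.52, SE 0.153, adjusted p = 0.347). Its estimates were also negative with TRV023 (-0.209, SE 0.105) and losartan (-0.175, SE 0.141). On the TMM scale every drug group lay wholly below the same vehicle lungs for Rps6ka3. Of all genes, 9.17%, 5.56% and 2.99% did so with AngII, TRV023 and losartan. Dusp26, an atypical phosphatase, had 9.35, 11 and 9.18 FPKM in AngII lungs and 5.95, 6.36 and 4.73 FPKM in vehicle lungs (0.93, SE 0.217, adjusted p = 0.295). Its estimate was also positive with TRV023 (1.15, SE 0.399, edgeR adjusted p = 0.766). TRV023 lungs had 13.1, 19.4 and 5.5 FPKM of Dusp26 and overlapped vehicle lungs.

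In the other comparisons, Fos, the prototype immediate early gene, had 73.2, 123 and 16.9 FPKM in TRV023 lungs and 16.5, 22.8 and 30.1 FPKM in vehicle lungs (log2 fold change 1.61, SE 0.586, adjusted p = 0.808), with Trv_930 inside the vehicle range. Of the 18 immediate early genes, 2 were higher and 1 was lower with TRV023 at an unadjusted edgeR p under 0.05. Of all genes, 2.61% were higher and 2.96% lower. The higher ones were Fos and Ier2 (0.53, SE 0.202, adjusted p = 0.822), and the lower one was Atf3 (-0.82, SE 0.314, adjusted p = 0.83). Il1rl1, a receptor of interleukin-33 counted among the delayed targets, had 12.6, 14.9 and 11.1 FPKM in TRV023 lungs and 7.47, 9.06 and 7.73 FPKM in vehicle lungs (0.67, SE 0.162, adjusted p = 0.554). With AngII, 1 of the 12 delayed targets was higher and 2 were lower at an unadjusted edgeR p under 0.05. Of all genes, 6.54% were higher and 5.39% lower. Etv4 was higher (0.58, SE 0.231), and Ereg (-2.85, SE 0.85, adjusted p = 0.352) and Areg (-1.03, SE 0.359, adjusted p = 0.372) were lower. Ereg had 13, 2 and 3 reads in AngII lungs and 53, 82 and 17 in vehicle lungs. Agtr1a, which encodes AT1R itself, had 24.0, 22.2 and 23.2 FPKM in losartan lungs and 31.1, 34.7 and 35.1 FPKM in vehicle lungs (-0.49, SE 0.126, adjusted p = 1). Arrb2, which encodes a β-arrestin, had 52.0, 53.3 and 46.5 FPKM in AngII lungs and 46.9, 40.2 and 39.1 FPKM in vehicle lungs (0.40, SE 0.126, adjusted p = 0.37). On the TMM scale these groups did not overlap for Il1rl1, Ereg, Agtr1a and Arrb2.

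The highest Fos levels, 123 FPKM in Trv_918, 99 FPKM in Los_964 and 73.2 FPKM in Trv_917, were in the 3 libraries with the highest Dusp1. The libraries next in Dusp1, Veh_963 (198 FPKM) and Trv_930 (171 FPKM), had 30.1 and 16.9 FPKM of Fos. Over the 12 libraries in TMM-scaled log2 CPM, Pearson's r of Dusp1 and Fos was 0.816 (permutation p = 0.00121, 0.00484 adjusted over the 4 pairs tested) and Spearman's rho was 0.748 (p = 0.00723 by permutation, 0.0289 adjusted). The permutations shuffled all 12 libraries without regard to group, and values of r within groups carry no p. Pearson's r was 0.758 without the libraries farthest from the median of Dusp1 (Los_964 and Veh_923) and 0.764 for deviations from the group means, which compares rats given the same infusion. For Dusp6 and Spry4, r was 0.499 (permutation p = 0.0957, adjusted 0.191) and rho 0.65 (permutation p = 0.0255, adjusted 0.051), with r = 0.705 without Veh_923 and Trv_917 and 0.53 within groups. Dusp6 with Etv5, an ETS factor downstream of fibroblast growth factor receptors, gave r = -0.194 (permutation p = 0.546, adjusted 0.728) and rho = -0.168 (permutation p = 0.603, adjusted 0.62), with r = 0.198 without Veh_923 and Trv_917 and -0.205 within groups. Spry1 with Spred1 gave r = 0.0897 (permutation p = 0.781, adjusted 0.781) and rho = 0.161 (permutation p = 0.62, adjusted 0.62), with r = 0.182 without the farthest libraries and 0.0546 within groups.

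**Figure D5:**
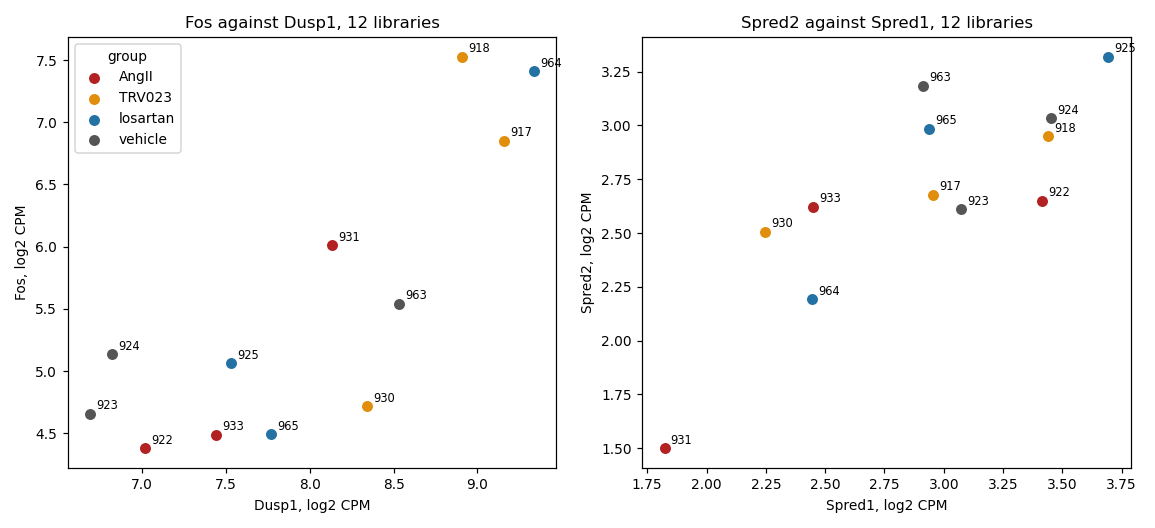
Fos against Dusp1 (left) and Spred2 against Spred1 (right), both axes in TMM-scaled log2 CPM, with 1 point for each of the 12 libraries, colored by group and numbered by animal. Pearson's r was 0.816 for Dusp1 and Fos and 0.813 for Spred1 and Spred2, and the library lowest in both Spred genes was Ang2_931.

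The 10 members did not vary as 1 block. Of their 45 pairs, 25 had a positive r over the 12 libraries, 10 had r over 0.5 and 1 had r under -0.5, with a median of 0.0785. The closest pair was Spred1 and Spred2 (r = 0.813, and 0.777 within groups), followed by Dusp6 and Spry1 (0.725 and 0.633), Dusp1 and Spry2 (0.71 and 0.403) and Dusp5 and Spry1 (0.692 and 0.723). The pair with r under -0.5 was Dusp2 and Spred2 (-0.502, and -0.111 within groups). Within groups, 5 other pairs were under -0.5: Spry2 and Spred2 (-0.814, against -0.385 over the 12 libraries), Dusp5 and Spred2 (-0.572), Dusp1 and Spry4 (-0.549), Dusp2 and Dusp5 (-0.529) and Dusp1 and Spred1 (-0.507). These values describe 12 libraries that share their scaling and carry no test.

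Outside the list, the genes most like each member were ranked by r over the 12 libraries among 13323 genes tested in all 3 comparisons. Taking the highest of so many values over 12 libraries by itself gives high r, and these values carry no test. They were Cdkl3 (0.937), Herpud2 (0.921) and Cir1 (0.905) for Dusp1, and Chp1 (0.934) and Mafk (0.91) were among them for Dusp5. For Dusp2 they included Arrb2 (0.892) and Vstm2l (0.875), and for Dusp4 they were Lamb3 (0.92), Nceh1 (0.883) and Tceb3 (0.858). Dusp6 was most like Tmem136 (0.83), Arhgap24 (0.828) and Nostrin (0.815), and Spry1 was most like Cyp26b1 (0.843), Flywch2 (0.823) and Rell1 (0.821). For Spry2 they were Tgfbrap1 (0.918), Mia (0.852) and Gipc2 (0.85), and for Spry4 Foxk2 (0.928), Iws1 (0.912) and Fam98a (0.881).

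The likeness was closest for the Spred genes: Exoc4 (0.981), Mbnl2 (0.956) and Shroom4 (0.954) for Spred1, and Dst (0.961), Atxn7l3b (0.961) and Hs3st3b1 (0.953) for Spred2. Spred1 and Spred2 are also the members with the longest loci, 61695 and 98249 bases from first to last base as listed, longer than 81.7% and 89.6% of loci, against a median of 17999 bases. The 3 genes most like Spred1 span 793937, 132198 and 207353 bases. Those most like Spred2 span 220974, 294 and 32074 bases. The other 8 members span 2175 to 14907 bases, and the part of locus length in the Spred values was not tested.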

How the data were processed

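Total RNA of lung tissue (RNeasy, Qiagen) was sequenced and processed for the authors by a company (Novogene). Not given in the sources used here: aligner, counter, genome build, annotation and strandedness. The authors deposited 3 tables, 1 per drug with vehicle, of whole read counts per gene and of FPKM values. For 88.2 to 88.3% of genes, FPKM was within 0.1% of counts divided by the listed gene length and by 1 total per library. The deposited tables also hold fold changes and p-values of the authors' own comparisons, and 9 further tables list the genes called from them. None of these were used.

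Counts were tested with the quasi-likelihood F-test of edgeR 4.0.16 (R 4.3.3, limma 3.58.1) after its default filter on low counts and TMM scaling, with 6 libraries per comparison with vehicle and all 12 for pairs of drugs. P-values were adjusted by Benjamini-Hochberg over all genes tested and called at 0.05. Log2 CPM used a prior count of 2 and TMM scaling of all 12 libraries together. Groups were said not to overlap when all 3 libraries of a group lay beyond all 3 of the other in TMM-scaled CPM. For these calls TMM scaling was redone on the 6 libraries compared, without a prior count. With 3 against 3 an exact permutation test of a single gene cannot go below 0.1, so none was run. Correlations used 100000 permutations in Python 3.11.15 (scipy 1.17.1), and figures were drawn with matplotlib 3.10.9. Promoters came from the RefSeq table of assembly GRCr8. The scripts were tested on simulated data.

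The members and lists were chosen with earlier results of these data known. Genes named are the 10 members, the 3 genes of each other list with the smallest p against vehicle, of which a part is printed, chosen after the values were seen, and the 3 genes most like each member, of which a few are not reported here. The alternatives included DESeq2 1.42.0 and limma-voom, limma applied to log2(FPKM + 1) where a gene averaged 1 FPKM or more, other scalings and filters, other sets of libraries, removal of a gene length trend (lowess, span 0.3), a threshold of 0.1 and leaving out each library. Depth was 16106337 to 20096877 reads per library. Gene symbols and positions are those of the deposited tables.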

Additional observations from a re-analysis of the deposited data

How the results depend on the processing

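Across the alternatives, 339 values of the members from fits without a library left out kept their direction and their side of the threshold, 1 passed it (Dusp2 with AngII by DESeq2, adjusted p = 0.026) and 10 reversed. With 1 library left out, 323 did so, 37 reversed, and none passed. No paired analysis was possible because each rat received 1 infusion and the groups share no animal numbers.

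For AngII over vehicle, the reversed values were 0.17 for Dusp1 by limma-voom and 0.0328 by limma on FPKM, -0.0343 for Spry2 by limma on FPKM, -0.0203 for Dusp4, -0.00214 for Dusp6 and -0.0193 for Spry2 with library totals, and 0.00737 for Spry4 without the gene length trend. For losartan over vehicle they were 0.42 for Spred1 and 0.48 for Spred2 without the animals of the separate number series, and 0.11 for Spred1 with that series as a covariate. Without that series, Los_925 was the only losartan lung left.

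Leaving out each library gave these ranges where a sign turned. For AngII over vehicle they were -0.377 to 0.834 for Dusp1, -0.124 to 0.451 for Dusp4, -0.0485 to 0.442 for Dusp5, -0.0246 to 0.258 for Dusp6, -0.22 to 0.151 for Spry1, -0.0433 to 0.267 for Spry2 and -0.376 to 0.163 for Spry4. For TRV023 over vehicle they were -0.0832 to 0.339 for Dusp2, -0.335 to 0.243 for Dusp4, -0.167 to 0.374 for Spry4 and -0.537 to 0.0506 for Spred1. For losartan over vehicle they were -0.0706 to 0.468 for Spry4, -0.456 to 0.199 for Spred1 and -0.321 to 0.198 for Spred2. For AngII over TRV023 they were -0.387 to 0.0202 for Dusp5 and -0.81 to 0.073 for Spred1. For TRV023 over losartan they were -0.292 to 0.132 for Dusp2, -1.07 to 0.108 for Dusp5, -0.0264 to 0.228 for Spry1, -0.301 to 0.063 for Spry4, -0.486 to 0.251 for Spred1 and -0.439 to 0.0804 for Spred2.

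The number of genes called, 2 with AngII, 1 with TRV023 and 0 with losartan and in each pair of drugs, was 204, 110, 6, 217, 103 and 16 by DESeq2, in the order AngII, TRV023 and losartan over vehicle, AngII over TRV023, AngII over losartan and TRV023 over losartan. With AngII it was 1 by limma-voom, by limma on FPKM, with library totals, in the fit of all 12 libraries and without the length trend. With TRV023 it was 0 by limma-voom and in the fit of all 12 libraries. With losartan it was 5 without the separate number series, and in the fit of only the AngII and TRV023 libraries it was 1. Leaving out each library gave 0 to 3 genes with AngII, 0 to 3 with TRV023, 0 to 1 with losartan, 0 to 0 for AngII over TRV023, 0 to 1 for AngII over losartan and 0 to 0 for TRV023 over losartan. The cause of these differences was not tested.

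Limits are 3 rats per group, wide intervals for Dusp1, Dusp5 and both Spred genes, whole lung RNA in place of separate cells, 1 time point and the absence of lungs without MCT from the libraries used here. Spred1 and Spred2 rest on as few as 58 and 46 reads in a library.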
